A study of Sus scrofa with 14 samples.

Results

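The cells described here were milk cells that held transcripts of complement C1q together with major histocompatibility complex class II (MHC II) genes. They were chosen by their own counts. Cells were kept where 300 genes or more were detected and no more than 25% of the unique molecular identifiers (UMIs, each standing for 1 captured transcript) were mitochondrial. It then needed UMIs of at least 3 of the 5 genes C1QA, C1QB, C1QC, SLA-DQB1 and HLA-DRA, with a C1Q gene among them, and 0 UMIs summed over CLDN4, EPCAM, CD3D, MMP8 and GPNMB. The markers were read by the gene symbols of the files, where C1QA has none, so that C1QB, C1QC, SLA-DQB1 and HLA-DRA did the choosing. Of 32085 kept milk cells, 63 met this rule, 35 in colostrum and 28 in mature milk. The levels of the chosen and excluded genes are therefore a description of the choice and not a finding, and genes that vary with them in these cells are touched by it too, in the comparison of the samples as well.

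The study followed the sow mammary gland from late gestation to involution by single-nucleus RNA sequencing, spatial transcriptomics and single-cell RNA sequencing of milk. Only the milk cells are compared here, with the gland nuclei as context. The colostrum sample is labelled lactation day 0 (L0) and the mature milk sample lactation day 20 (L20), each from 1 library of 1 sow in its second breeding cycle, with no treatment, genotype or age in the labels. The labels give mammary gland as the tissue of both, whereas the methods of the study describe fresh colostrum and fresh mature milk. With 1 library per stage, stage, animal and library cannot be told apart, no test was possible, and every interval given covers counting error only.

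C1q is the recognition part of the classical complement pathway, built from the A, B and C chains, and in most tissues macrophages are its main source. MHC II molecules carry peptides from endocytosed material to helper T cells. Their invariant chain (CD74), the peptide exchange proteins of the DM type and lysosomal proteases such as cathepsin S prepare them for loading, and the genes are switched on together through short promoter elements that include the X and Y boxes. Milk macrophages are known to take up fat, milk protein and dying cells.

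The promoters of 4 MHC II genes and 2 C1Q genes are shown because the rule joined these gene groups, which differ in their promoter letters. Each run is the 150 bases before the RefSeq gene start in Sscrofa11.1, 5′ to 3′ on the strand of the gene, with the Y box letters GATTGG or their reverse complement CCAATC in capitals. HLA-DRA of the files is the pig gene that RefSeq calls SLA-DRA.
SLA-DRA (chr7:24824887-24825036, plus strand): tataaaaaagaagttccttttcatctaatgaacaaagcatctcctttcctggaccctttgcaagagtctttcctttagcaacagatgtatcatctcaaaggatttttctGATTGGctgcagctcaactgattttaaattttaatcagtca
SLA-DQB1 (chr7:24977239-24977388, minus strand): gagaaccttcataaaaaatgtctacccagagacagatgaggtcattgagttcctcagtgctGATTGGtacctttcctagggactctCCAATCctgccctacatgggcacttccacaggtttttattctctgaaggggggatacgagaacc
SLA-DMA (chr7:25137929-25138078, minus strand): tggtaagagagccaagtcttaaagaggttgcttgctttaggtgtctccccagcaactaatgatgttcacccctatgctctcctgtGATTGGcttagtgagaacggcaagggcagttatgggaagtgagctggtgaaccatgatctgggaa
SLA-DMB (chr7:25125090-25125239, minus strand): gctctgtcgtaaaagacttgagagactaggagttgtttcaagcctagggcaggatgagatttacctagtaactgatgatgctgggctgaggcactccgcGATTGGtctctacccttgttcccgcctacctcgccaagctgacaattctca
C1QB (chr6:80601530-80601679, plus strand): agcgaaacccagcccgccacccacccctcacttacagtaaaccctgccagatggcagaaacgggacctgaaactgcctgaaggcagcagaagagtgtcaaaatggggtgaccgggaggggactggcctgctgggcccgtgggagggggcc
C1QC (chr6:80592441-80592590, plus strand): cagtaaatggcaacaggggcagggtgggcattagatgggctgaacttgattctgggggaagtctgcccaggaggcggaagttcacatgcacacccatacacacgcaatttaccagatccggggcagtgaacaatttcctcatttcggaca
The letters GATTGG, searched on both strands from 250 bases before to 50 bases after the start, were present in 7 of 8 MHC II genes (SLA-DRA, SLA-DRB1, SLA-DQA1, SLA-DQB1, SLA-DMA, SLA-DMB and SLA-DOA, but not SLA-DOB) and in 0 of C1QA, C1QB, C1QC and CD74. Over all 19572 promoters of the same length, 16% held them. In the 7 genes the match nearest to the start began 40 to 91 bases before it. The letters AGCAAC, taken from the X box and overlapping no GATTGG, were found in 7 of the 8 MHC II genes (not SLA-DQB1) against 14.1% of all promoters, and the cyclic AMP element TGACGTCA in 0 of these 12 genes against 2.25%. These are matches of letters and not measured binding sites. The 8 MHC II genes all lie on chromosome 7, and C1QA, C1QC and C1QB stand next to each other on chromosome 6 between bases 80586259 and 80606076.

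The share of cells that met the rule differed between the milk samples by less than counting error. In colostrum, 35 of 17571 kept cells met it (0.199%, exact Clopper-Pearson 95% interval 0.139 to 0.277), and in mature milk 28 of 14514 (0.193%, 0.128 to 0.279). They were deeper than the cells around them, with a median of 5725 UMIs per cell in colostrum (lowest 833, highest 22157) and 5893 in mature milk (826 to 10144), whereas the other kept cells had medians of 1328.5 and 1283. Mitochondrial UMIs took a median of 4.46% and 4.95%. The samples held 284 cell barcodes in common, and none of the 63 cells carried one of these. All UMIs of the cells of a sample were summed, 201182 in colostrum and 149442 in mature milk, and a level below is the UMIs of a gene per 1000000 of that sum (CPM).

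The label held for most of the colostrum cells and for fewer of the mature milk cells. The UMIs of C1QB and C1QC in a cell ranged in colostrum from 1 to 231 with a median of 99, and in mature milk from 1 to 179 with a median of 5. There were 10 or more such UMIs in 30 of 35 colostrum cells and in 12 of 28 mature milk cells, a threshold set after the values were seen. The other 5 and 16 cells passed on a few C1Q UMIs, and 4 and 10 of them on fewer than 3. SLA-DQB1 and HLA-DRA together gave 2 to 377 UMIs per cell in colostrum (median 88) and 1 to 392 in mature milk (median 56.5). C1QA, matched by its identifier and unused in the choice, was detected in all 30 and all 12 cells with 10 or more C1Q UMIs but in 1 of the 5 and 2 of the 16 others. C1QB was also found in 6.66% of 2193 colostrum cells that held both CLDN4 and EPCAM (median 20969 UMIs per cell) and in 2.54% of 276 such cells of mature milk (median 14898.5), so a few C1Q UMIs are no evidence that a cell expresses the gene.

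**Figure D1:**
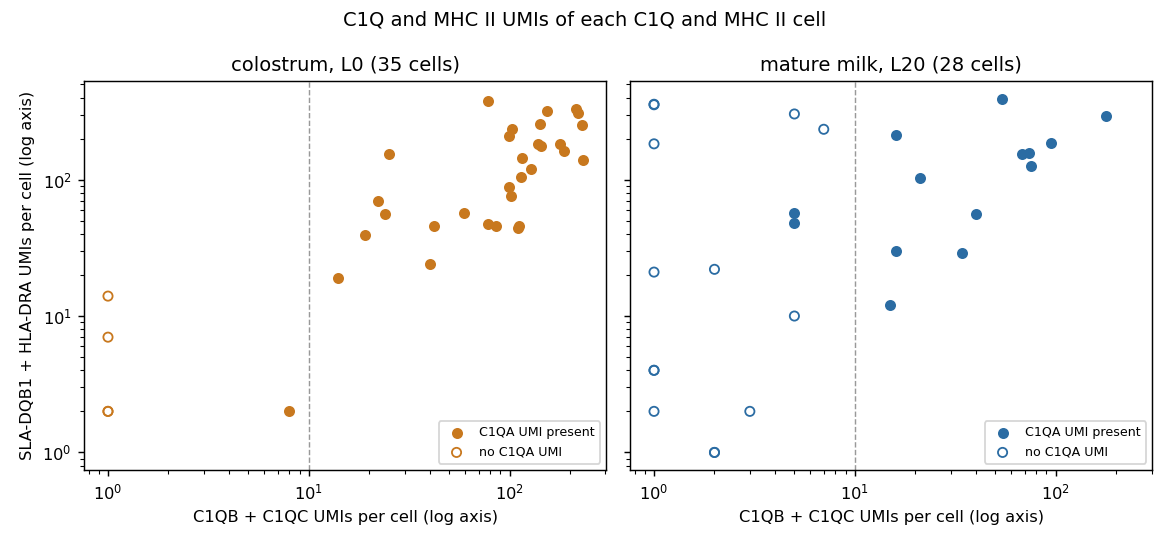
UMIs of C1QB and C1QC (horizontal, log axis) against UMIs of SLA-DQB1 and HLA-DRA (vertical, log axis) in each of the 35 colostrum and 28 mature milk cells. Filled points held a C1QA UMI and open points none, and the dashed line marks 10 C1Q UMIs: 30 colostrum and 12 mature milk cells lie at or beyond it.

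The rule removed different cells in the samples. In colostrum, 164 cells held enough of the markers, of which 93 had a GPNMB UMI, 69 a CLDN4 UMI, 68 an EPCAM UMI and 37 an MMP8 UMI. In mature milk the same step left 166 cells, of which 137 had a GPNMB UMI and at most 12 a UMI of any other excluded gene. Just outside the threshold, 18 colostrum and 10 mature milk cells had 2 markers, with a median of 1 C1Q UMI. Just inside it, 4 and 13 cells had 3 of the 4 markers with a symbol, also with a median of 1, and 31 and 15 cells had all 4.

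Some markers of lymphocytes, epithelium, fibroblasts and endothelium were at 0 in these cells. Other genes of the lymphocyte and luminal lists were detected, as were most genes of the neutrophil, monocyte and dendritic cell lists. The rule itself left out cells with a CLDN4, EPCAM or CD3D UMI, which touches the epithelial and T cell genes. CD6, CD8A, CD8B, CD4 and LCK of T cells, MS4A1, CD79B and PAX5 of B cells, KRT7 and KRT23 of the epithelium, COL1A1, COL3A1, DCN and LUM of fibroblasts and VWF and CDH5 of endothelium had 0 UMIs in both samples. Genes at 0 made up 12 and 8 of the 17 T and NK cell genes in colostrum and mature milk, 5 and 8 of the 11 B and plasma cell genes, 3 and 8 of the 11 luminal epithelial genes and 10 of 11 fibroblast and endothelial genes in both, PLVAP of endothelium being the exception with 28 and 8 UMIs. The 8 neutrophil genes (1 at 0 in each sample) summed to 4364 and 6297 CPM, below the 7839 and 9975 CPM of the other kept cells. In colostrum they stood at 1966 CPM in the 30 cells with 10 or more C1Q UMIs and at 16003 CPM in the 5 others, and in mature milk at 3413 and 8348 CPM. Single cells weighed on these sums. Per cell the neutrophil genes gave 0 to 629 UMIs per 10000 in colostrum (median 10.3) and 0 to 446 in mature milk (median 31.1). For S100A12, a calgranulin gene, 1 cell held 367 of the 376 UMIs of the 5 colostrum cells. In mature milk 1 cell held 275 of the 428 UMIs of the 16 cells with under 10 C1Q UMIs. The 8 monocyte genes (2 and 0 at 0) summed to 765 and 1191 CPM, also below the 1259 and 1567 CPM of the other kept cells, while the 14 dendritic cell genes (5 and 2 at 0), at 616 and 642 CPM, stood above their 168 and 377 CPM. The T and NK cell genes summed to 273 and 375 CPM, above the 105 CPM of the other kept cells in colostrum and below their 701 CPM in mature milk, with NKG7 at 47 and 14 UMIs. The luminal genes summed to 179 and 33.5 CPM, below 1786 and 459 CPM. Against the other kept cells, 2 of 3 B and plasma cell genes tested in both samples were past 2-fold higher in both and 0 lower. For T and NK cell genes, 1 of 5 was higher and 0 lower, and for luminal genes 0 of 7 were higher and 5 lower. Over all genes tested in both samples, 12.4% were higher and 3.74% lower. Median log2 ratios in colostrum and mature milk were 3.47 and 3.33 for B and plasma cell genes and 1.31 and -0.68 for T and NK cell genes. They were -2.79 and -1.96 for luminal genes, beside 0.67 and 0.39 over all genes. What these cells owe to such transcripts was not tested. CSF1R, the receptor of macrophage colony-stimulating factor, had a UMI in 28 of 35 cells (80.0%) and 20 of 28 cells (71.4%). This was above the 18.2% and 3.62% of the CLDN4 and EPCAM cells, which are deeper. It was also above the 8.62% and 13.2% of the other kept cells, which are shallower. Of the nearest cells described further below, C1Q cells with GPNMB had near shares, 75.0% and 72.4%, and MHC II cells without C1Q had 19.9% and 38.7%. A single colostrum cell, with the most UMIs of all (22157) and 1 C1Q UMI, held 666 of the 670 JCHAIN UMIs of the colostrum cells and all 66 MZB1 and 23 POU2AF1 UMIs, genes of antibody-secreting cells. JCHAIN was at 0 UMIs in the mature milk cells, and most of the summed level of the B and plasma cell genes in colostrum, 4295 CPM against 207 CPM, came from that 1 cell. In the cells with 10 or more C1Q UMIs the sums were 635 and 322 CPM, and BANK1, a B cell adaptor, stood at 507 and 187 CPM over all the cells against 7.71 and 20.0 CPM in the other kept cells.

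Milk protein transcripts moved with the sample. CSN2, the beta-casein gene, was found in 100% of the colostrum cells (827 UMIs) and in 57.1% of the mature milk cells (47 UMIs), and in 99.5% and 57.7% of the other kept cells. The share of cells with a CSN2 UMI was thus close to that of the cells around them. Those were shallower, with medians of 1328.5 and 1283 UMIs against 5725 and 5893, so near shares do not mean near levels. CSN1S1, CSN2, CSN3 and LALBA were all past 2-fold lower in mature milk (log2 ratios -2.39 to -3.71) and summed to 7376 and 716 CPM, compared with 160823 and 61467 CPM in the other kept cells. Per cell their sum was 47.1 to 206 UMIs per 10000 in colostrum and 0 to 40.5 in mature milk, without overlap. Where these transcripts came from was not tested. With milk protein and mitochondrial genes left out, the counts of genes 2-fold higher and lower between the samples, given below as 446 and 412, were 447 and 407. Doublets could not be removed, since the caller marked only 1 and 0 cells of the whole samples.

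**Figure D2:**
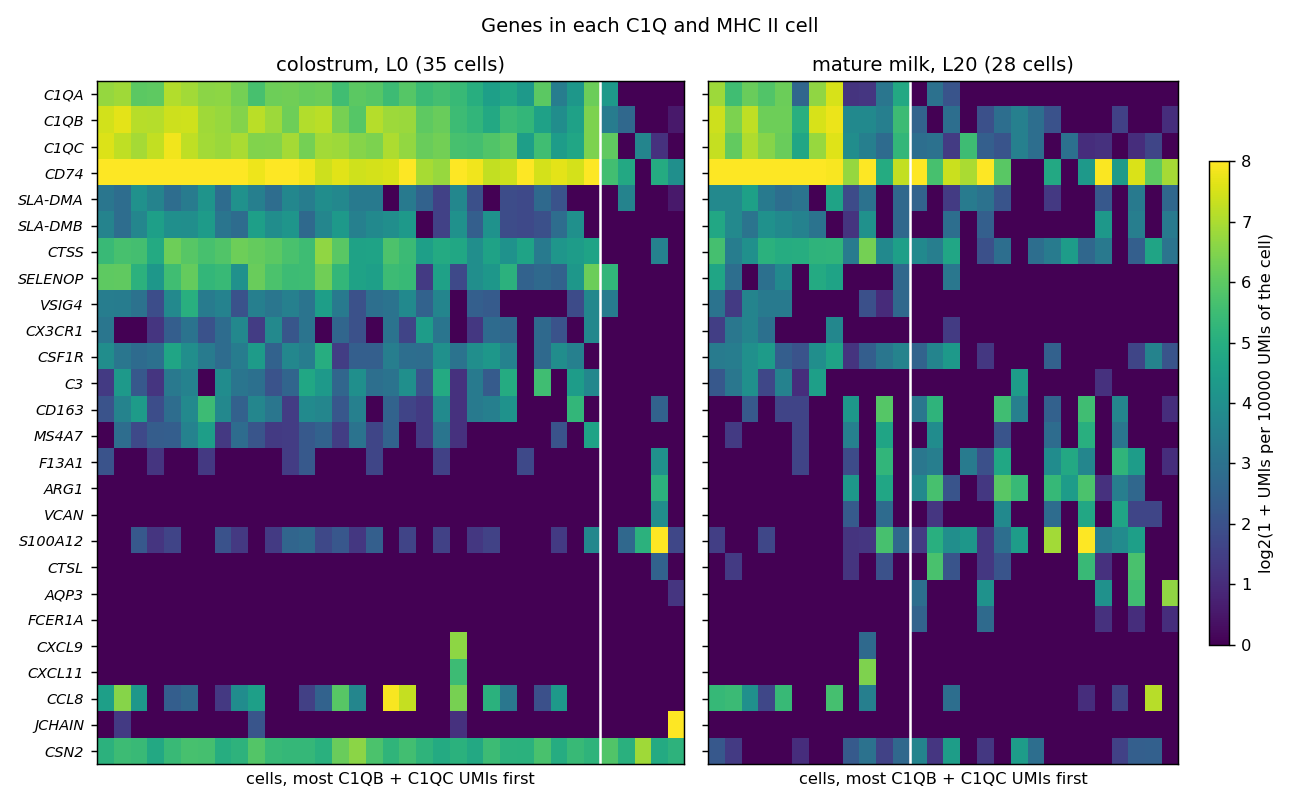
Level of 26 genes (rows, log2 of 1 plus UMIs per 10000 of the cell) in each of the 35 colostrum and 28 mature milk cells (columns), sorted by C1QB and C1QC UMIs, with a white line where these reach 10 UMIs. C1QA, SELENOP, VSIG4 and C3 fill the columns with many C1Q UMIs, while ARG1, VCAN, CTSL and AQP3 lie among the mature milk cells with few.

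Between the samples, the cells of mature milk held less SELENOP, VSIG4, CX3CR1 and C3 and more ARG1, F13A1, CTSL and NF-kappa-B target genes, with CD74 within 2-fold. Some of these differences were also present around them: in the other kept cells of colostrum and mature milk ARG1 stood at 202 and 1264 CPM, F13A1 at 82.6 and 447 CPM, CTSL at 75.3 and 2054 CPM and SELENOP at 266 and 65.0 CPM. VSIG4 (34.2 and 80.7 CPM) and C3 (32.8 and 92.8 CPM) ran the other way there, and CX3CR1 stood at 1.08 and 1.43 CPM. In the nearest cells described further below the falls were shared: in C1Q cells with GPNMB, SELENOP stood at 1857 and 213 CPM, CX3CR1 at 44.7 and 1.45 CPM, C3 at 489 and 57.7 CPM and VSIG4 at 825 and 399 CPM, and in MHC II cells without C1Q, CX3CR1 stood at 30.6 and 8.05 CPM and C3 at 53.6 and 19.9 CPM. These falls were thus not seen in the cells described here alone. Of 2677 genes with at least 20 UMIs over both, 446 were 2-fold or more higher in mature milk (16.7%) and 412 lower (15.4%), with a median log2 ratio of 0.12, and this fold is a size and not a test. Because fewer mature milk cells were rich in C1Q, the leading results are also given for the cells with 10 or more C1Q UMIs, 30 and 12 in number. That cut uses genes of the rule and is no separate check. C1QB still stood at 9825 CPM in the 30 colostrum cells and at 5860 CPM in the 12 mature milk cells. Among these, 195 of 1836 genes were higher in mature milk (10.6%) and 358 lower (19.5%), with a median of -0.06. For 32 of the 446 higher and 26 of the 412 lower genes, 1 cell held over 50% of the UMIs of the sample with the higher level.

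The C1q chains were lower in mature milk, but the rule used B and C and the A chain went with them from cell to cell. Their levels therefore describe the cells that passed the rule and are not a finding. C1QA had 0 to 74 UMIs per colostrum cell (median 27) and 0 to 62 per mature milk cell (median 0.5), and the summed level was 5279 CPM (exact Poisson 95% interval 4966 to 5606) against 1506 CPM (1315 to 1716), a log2 ratio of -1.81. C1QB and C1QC had log2 ratios of -1.68 and -1.83. The ranges of single cells overlapped. Among the cells with 10 or more C1Q UMIs the 3 ratios were -0.86, -0.75 and -0.94, within 2-fold.

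MHC II loading genes differed little, but by the rule every cell held a UMI of SLA-DQB1 or HLA-DRA. Near levels of genes that are switched on with these therefore describe the choice as well and are not a finding. CD74 gave 0 to 295 UMIs per colostrum cell (median 121) and 0 to 303 per mature milk cell (median 73.5), which summed to 21821 CPM (21180 to 22476) and 18529 CPM (17845 to 19232). SLA-DMA and SLA-DMB, which form the peptide exchange protein DM, had log2 ratios of -0.48 and -0.49, and SLA-DOA, a chain of its inhibitor DO, had -0.53. Of the 8 loading genes tested, 0 were past 2-fold higher and 1 lower, with a median of -0.47 beside 0.12 over all genes. The 1 lower gene was CTSS, cathepsin S, which trims the invariant chain, at 3529 CPM (3274 to 3799) and 1753 CPM (1547 to 1979). In the cells with 10 or more C1Q UMIs its log2 ratio was -0.51 and 0 of 7 loading genes were past 2-fold. SLA-DQB1 and HLA-DRA, used by the rule, both had a ratio of 0.06. MHC II genes are polymorphic and closely related, and counts of single members are uncertain where reads were shared between them.

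Of 15 macrophage identity genes tested, SELENOP, VSIG4, MAF, MSR1 and CD68 were past 2-fold lower in mature milk and F13A1 and MRC1 higher, with a median of -0.58. SELENOP encodes selenoprotein P, a selenium carrier made by many resident macrophages. Per cell it gave 0 to 43 UMIs in colostrum (median 13, detected in 31 of 35) and 0 to 14 in mature milk (median 0, 8 of 28). The level was 2789 CPM (2563 to 3029) against 261 CPM (186 to 357), a log2 ratio of -3.42, and -2.61 in the cells with 10 or more C1Q UMIs. Thinned to 1000 UMIs per cell, which left out 2 cells of each sample, SELENOP was present in 77.3% and 18.7% of cells, compared with 88.6% and 28.6% unthinned. Epithelial cells hold this transcript too: it was found in 91.9% and 65.9% of the CLDN4 and EPCAM cells but in 3.03% and 0.676% of cells with MMP8.

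CX3CR1, VSIG4 and C3 were lower as well. CX3CR1, the fractalkine receptor, was detected in 23 of 35 colostrum cells (65.7%, 47.8 to 80.9; at most 13 UMIs) and in 6 of 28 mature milk cells (21.4%, 8.30 to 41.0; at most 5), compared with 0.365% of the colostrum CLDN4 and EPCAM cells and 0 of 276 in mature milk, which allows a share of cells with a UMI of up to 1.09% when 3 counts are taken as the limit, both at greater depth. Its level was 388 CPM (306 to 484) and 93.7 CPM (51.2 to 157). VSIG4, a complement receptor of resident macrophages, was at 621 CPM (517 to 740) and 134 CPM (81.7 to 207), and C3, the central complement component, at 795 CPM (677 to 929) and 161 CPM (103 to 239). The log2 ratios of CX3CR1, VSIG4 and C3 were -2.05, -2.21 and -2.31. In the cells with 10 or more C1Q UMIs, where C1QB and C1QC were lower in mature milk too, they were -1.16, -1.21 and -1.50. CSF1R, AIF1 and SPI1 had ratios of -0.58, -0.22 and -0.06, within 2-fold. CD163 and MS4A7 had 0.57 and 0.86, and both turned negative in cells thinned to 1000 UMIs, at -1.08 and -0.10. Of 3 complement components tested, C3 and SERPING1 (-1.48) were lower and CFP higher. CFP, properdin of the alternative pathway, had 5 UMIs in 3 colostrum cells and 44 UMIs in 13 mature milk cells, a log2 ratio of 3.57 (counting interval 2.24 to 5.26). SERPING1 turned to 0.28 after thinning. Of 5 genes in the complement receptor list, to which VSIG4 does not belong, 1 was higher (CALR) and 1 lower (C5AR1).

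Most genes for the uptake of dying cells were lower. Of 6 tested, 5 were past 2-fold lower (AXL, MFGE8, CD36, ITGAV and ITGB5) and 0 higher, with a median of -1.80. MFGE8, a bridge to dying cells that milk epithelium also secretes, stood at 1788 and 423 CPM in the other kept cells against 134 and 6.69 CPM here, lower in mature milk in both as the milk protein genes were. AXL, a receptor for phosphatidylserine bridges, had 35 and 10 UMIs, a log2 ratio of -1.38. ITGB5, an integrin chain, had 33 UMIs in 20 colostrum cells and 3 UMIs in 3 mature milk cells. In the cells with 10 or more C1Q UMIs, 4 of 5 were lower, AXL being within 2-fold at -0.70.

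Lysosomal genes split. Of 24 tested, 9 were past 2-fold lower and 2 higher, with a median of -0.35. In the cells with 10 or more C1Q UMIs, 5 of 21 were lower and 2 higher, with a median of -0.49. Over all genes tested in those cells, 19.5% were lower. CTSD, CTSZ, GRN, NPC2 and HEXA had log2 ratios of -1.48, -1.62, -1.70, -1.32 and -1.50. CTSL was the opposite, with 4 UMIs in 1 colostrum cell and 133 UMIs in 10 mature milk cells, 19.9 CPM against 890 CPM. ACP5, tartrate-resistant acid phosphatase, had 92 UMIs in 19 colostrum cells and 2 UMIs in 2 mature milk cells, a log2 ratio of -5.09 (counting interval -8.16 to -3.20).

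Most lipid handling genes tested were higher in mature milk, but their summed level moved less than in the cells around them. The 18 genes of the list summed to 2943 CPM in colostrum and 3540 CPM in mature milk. In the other kept cells they summed to 3323 and 18605 CPM, and in the C1Q cells with GPNMB to 23114 and 72368 CPM. Of 11 tested, 7 were past 2-fold higher (FABP5, PLIN2, SPP1, LGALS3, CD9, ABCA1 and SOAT1) and 3 lower (APOE, CD36 and ACP5), with a median of 1.29. PLIN2, the coat protein of lipid droplets, had 18 UMIs in 14 colostrum cells and 58 UMIs in 13 mature milk cells, a log2 ratio of 2.12. APOE, an apolipoprotein, had 142 UMIs in 23 cells and 16 UMIs in 4, a ratio of -2.72. FABP5, a fatty acid carrier, gave 97 and 176 UMIs, of which 92 in mature milk came from 1 cell. Among the cells with 10 or more C1Q UMIs, 4 of 9 were higher and 4 lower.

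Most NF-kappa-B targets were higher in mature milk. Of 11 tested, 9 were past 2-fold higher and 0 lower, with a median of 1.50. NFKBIA, the inhibitor that NF-kappa-B itself induces, gave a median of 3 UMIs per colostrum cell (30 of 35) and 13.5 per mature milk cell (24 of 28), at 885 and 2623 CPM, a log2 ratio of 1.57. It was also higher in the other kept cells, 779 and 2603 CPM. ICAM1, an adhesion molecule, and IER3, an early response gene, had ratios of 2.36 and 2.44. With 10 or more C1Q UMIs, 4 of 8 were higher, with a median of 1.08, and TNFAIP3 turned from 1.50 to -0.41.

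Secreted factors showed no common direction. Of 11 chemokine genes, 4 were past 2-fold higher and 2 lower, with a median of 0.41. CXCL8, which draws neutrophils, was detected in 33 of 35 and 27 of 28 cells with a log2 ratio of 0.10, and CCL4 in 22 and 23 cells with 0.41. CCL2 had 22 UMIs in colostrum and 149 in mature milk, but 97 of these came from 1 cell, and its ratio of 3.19 became -0.034 in the cells with 10 or more C1Q UMIs. CXCL9 and CXCL11, induced by interferon gamma, each had all their UMIs in 1 cell of each sample, 83 and 36 in colostrum and 4 and 61 in mature milk. IL10, an anti-inflammatory cytokine, had 45 UMIs in 13 colostrum cells and 8 UMIs in 5 mature milk cells, and TNFSF13B, the B cell factor BAFF, 87 UMIs in 23 and 8 UMIs in 5, with log2 ratios of -2.06 and -3.01.

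Activation lists held members in both directions. Of 9 alternative activation genes, 5 were past 2-fold higher (ARG1, MRC1, KLF4, IL4R and PDCD1LG2) and 1 lower (IL10), with a median of 1.17. Of 8 adhesion genes, 4 were higher, ITGA4, ICAM1 and CD9 among them, and 0 lower, with a median of 1.30. With 10 or more C1Q UMIs, 2 of 6 adhesion genes were higher and 0 lower, with a median of 0.18. Of 5 monocyte genes, 3 were higher, VCAN and THBS1 among them, and CX3CR1 and CD36 were lower. In the cells with 10 or more C1Q UMIs, 0 of the 2 monocyte genes tested were higher and 2 lower. All 30 THBS1 UMIs of mature milk lay in cells with fewer C1Q UMIs, 19 of them in 1 cell. Of 10 interferon gamma genes, 4 were higher and 2 lower, with a median of 0.48. Of 9 type I interferon genes, 4 were past 2-fold higher, ISG15, IFI6 and EIF2AK2 among them, and 0 lower, with a median of 0.88. EIF2AK2 had only 8 and 14 UMIs, and the counting interval of its log2 ratio was -0.12 to 2.70. The 23 genes of that list summed to 895 and 2034 CPM here. They rose around these cells too, at 1156 and 4273 CPM in the other kept cells and 1085 and 4699 CPM in the C1Q cells with GPNMB. CD86, a co-stimulatory ligand of CD28, had 45 UMIs in 16 cells and 90 UMIs in 19, a log2 ratio of 1.43, while CD40 and CD80 had 0.07 and 0.15. Immediate early and heat shock genes had a median of -0.53, with 2 of 11 lower (HSP90AA1 and DNAJB1) and 0 higher. HSP70.2, a heat shock gene outside that list, had 239 UMIs in 23 colostrum cells, 154 of them in 1 cell, and 2 UMIs in 2 mature milk cells, a log2 ratio of -6.47 (counting interval -9.53 to -4.60), and stood at 2602 and 604 CPM in the other kept cells. TFRC, the transferrin receptor, had 5 UMIs in 5 colostrum cells and 54 UMIs in 7 mature milk cells, and FTL, the ferritin light chain, had a ratio of 0.11.

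**Figure D3:**
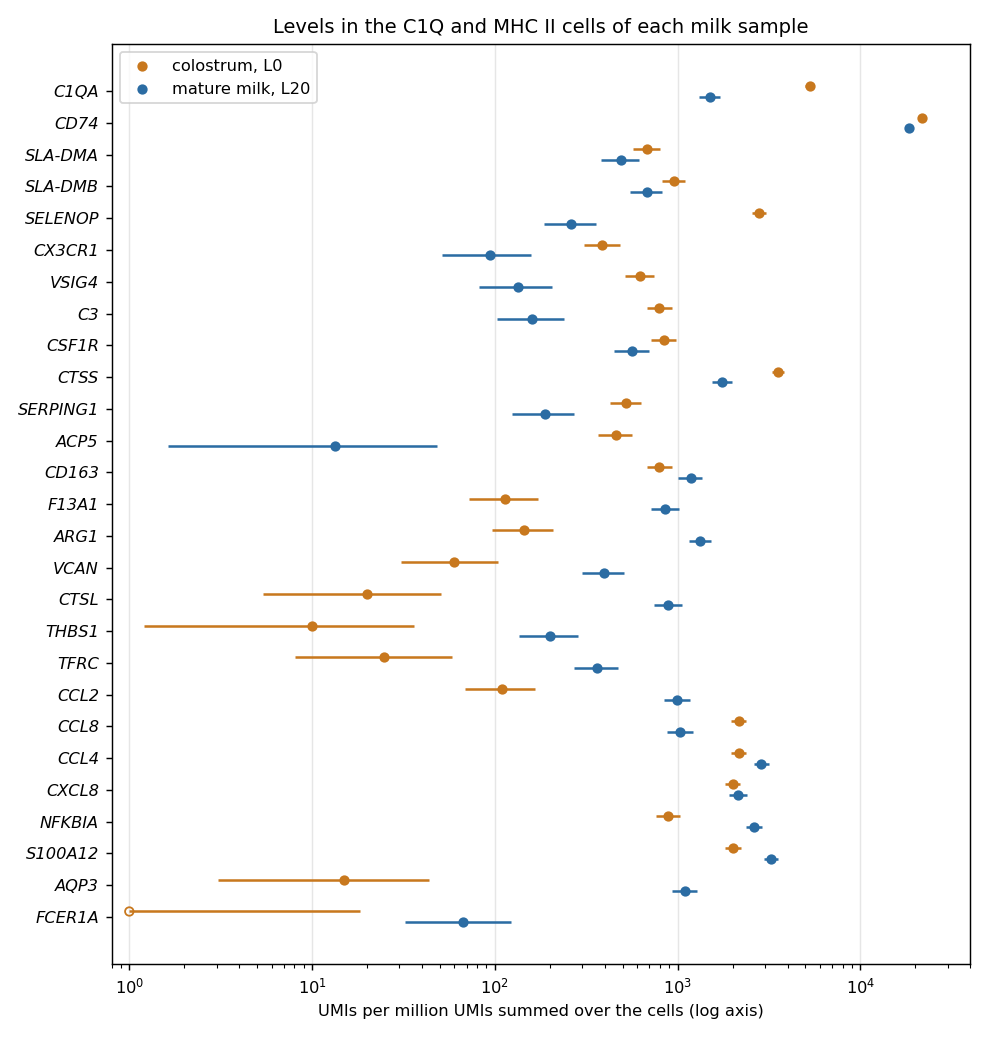
Level in CPM (log axis) of each gene summed over the 35 colostrum cells (orange) and the 28 mature milk cells (blue), with exact Poisson 95% intervals, an open point standing for 0 UMIs. SELENOP, CX3CR1, VSIG4, C3 and ACP5 lie to the left in mature milk, F13A1, ARG1, CTSL, TFRC and AQP3 to the right, and CD74 and CXCL8 lie close together.

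Several of the genes that were higher in mature milk lay mostly in cells with few C1Q UMIs. ARG1, arginase 1, had 29 UMIs in 1 colostrum cell and 199 UMIs in 14 mature milk cells, 144 CPM (96.5 to 207) against 1332 CPM (1153 to 1530). F13A1, the A chain of coagulation factor XIII, had 23 UMIs in 9 cells and 128 UMIs in 14. VCAN, a proteoglycan of monocytes, had 12 UMIs in 1 cell and 59 UMIs in 9. Within mature milk, ARG1 stood at 644 CPM (460 to 877) in the 12 cells with 10 or more C1Q UMIs and at 1821 CPM (1549 to 2127) in the 16 others, and VCAN at 145 and 573 CPM. The 40 ARG1 UMIs of the 12 cells lay in only 2 of them, 14 in 1 and 26 in the other. Those 2 cells also held the VCAN UMIs of the 12, 3 and 6. Of the 16 others, 12 held an ARG1 UMI. CTSL stood at 80.5 CPM (26.1 to 188) and 1466 CPM (1223 to 1743).

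The 16 mature milk cells with under 10 C1Q UMIs were uneven in MHC II. Their SLA-DQB1 and HLA-DRA UMIs ranged from 1 to 357 with a median of 21.5, and 5 cells with AQP3 held 1431 of the 1603 UMIs. In the other 11 cells they ranged from 1 to 57 with a median of 4. CD74 stood at 24793 CPM (23570 to 26063) in the 12 mature milk cells with 10 or more C1Q UMIs and at 14074 CPM (13298 to 14883) in the 16 others, and HLA-DRA at 13137 and 9230 CPM, but without the 5 cells with AQP3 the 11 others stood at 5224 CPM of CD74 and 1734 CPM of HLA-DRA. SELENOP stood at 547 CPM (379 to 765) in the former and 57.3 CPM (18.6 to 134) in the latter, VSIG4 at 322 CPM (197 to 497) and at 0 UMIs, and C3 at 338 and 34.4 CPM. CD163, a scavenger receptor for haemoglobin complexes, was at 1240 CPM (978 to 1549) and 1134 CPM (921 to 1380), but 59 of the 77 UMIs of the former came from 1 cell. Without the 2 cells among these 12 that held 3 or more ARG1 UMIs, 4 CD163 UMIs were left in 10 cells, 90.6 CPM. In colostrum the 5 cells with few C1Q UMIs were a different set, with CD74 at 1979 CPM (1536 to 2508), CSF1R at 0 UMIs and a median of 1814 UMIs per cell.

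A pair of small cell groups, picked after the values were seen, carried much of this. Among the mature milk cells, 11 with 3 or more ARG1 UMIs held 195 of the 199 ARG1 UMIs, 171 of 176 CD163 UMIs, 460 of 484 S100A12 UMIs, 122 of 128 F13A1 UMIs and 128 of 133 CTSL UMIs, and 9 of them had under 10 C1Q UMIs. S100A12 encodes a calgranulin of monocytes and neutrophils. A single colostrum cell also had such counts, with 29 ARG1, 367 S100A12 and 13 F13A1 UMIs. A set of 5 mature milk cells, 2 of them also among these 11, held all 163 AQP3 UMIs, 93 of them in 1 cell, and all 10 UMIs of FCER1A, a chain of the high-affinity IgE receptor that dendritic cells and mast cells carry. These 5 cells had 183 to 357 MHC II UMIs each, with a median of 303, but under 10 C1Q UMIs and 0 of C1QA. AQP3, an aquaglyceroporin, had 3 UMIs in 1 colostrum cell, and the log2 ratio of 6.19 has a counting interval of 4.62 to 8.49.

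The same C1Q counts were also set against other genes cell by cell. Across the 35 colostrum cells and the 28 mature milk cells, the share of C1QB and C1QC UMIs in a cell went with that of C1QA (Spearman rho 0.86 and 0.83), SELENOP (0.76 and 0.66), CTSS (0.81 and 0.59), VSIG4 (0.70 and 0.59) and CD74 (0.59 and 0.53). In mature milk it ran opposite to ARG1 (-0.56), F13A1 (-0.55), VCAN (-0.52), AQP3 (-0.48) and S100A12 (-0.42), and CD163 had 0.44 in colostrum and -0.25 in mature milk. CSN2 had 0.14 and -0.05. These are descriptions over cells of 1 library that share depth and total, not tests.

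Set beside their nearest neighbours, the cells were compared first with cells that met the marker part of the rule and held GPNMB, a glycoprotein of lipid-laden macrophages, with none of the other excluded genes. There were 32 such cells in colostrum (median 7783 UMIs) and 123 in mature milk (median 20948 UMIs). Of 3797 genes with enough UMIs in both samples, 228 were 2-fold or more higher in the cells described here in both (6%) and 213 lower in both (5.61%). The split by GPNMB made this contrast, so these are descriptions, and the GPNMB cells of mature milk were deeper.

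The GPNMB cells held far more lipid and lysosome transcripts. Of 14 lipid handling genes, 11 were lower in the cells described here in both samples and 0 higher, and of 24 lysosomal genes 11 were lower and 0 higher. FABP4, a fatty acid carrier, had 0 UMIs in the colostrum cells and 114 CPM in the mature milk cells, against 1158 and 12360 CPM in the GPNMB cells. SPP1, osteopontin, had log2 ratios of -4.87 and -6.07, LGALS3, galectin 3, -7.30 and -5.13, and CTSD, cathepsin D, -2.60 and -5.10. Of 8 MHC II loading genes, 0 were higher and 1 lower in both samples, with CD74 at 0.70 and 2.49, and of 8 MHC I genes 0 were past 2-fold in both. Several activation genes were on the other side. CD40 was higher by 2.58 and 2.71 on the log2 scale, TNFAIP3 by 2.60 and 3.43, SLAMF7 by 3.06 and 2.97 and IL1A by 2.37 and 3.09. In mature milk, 79 of 86 TNFAIP3 and 90 of 121 SLAMF7 UMIs lay in cells with under 10 C1Q UMIs. In colostrum 30 of 61 SLAMF7 UMIs came from 1 cell. The MHC II cells without C1Q, described next, held near levels of CD40 (87.3 and 108 CPM against 134 and 141) and TNFAIP3 (167 and 447 CPM against 204 and 575). SLAMF7 was higher in the other kept cells of mature milk, 2174 against 810 CPM. By list, 6 of 11 NF-kappa-B targets and 4 of 8 co-stimulation genes were higher in both.

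The other neighbours held both SLA-DQB1 and HLA-DRA but no C1QB or C1QC and none of the excluded genes, 176 cells in colostrum (median 2861.5 UMIs) and 432 in mature milk (median 4055). A single UMI of each gene was enough, and many held little MHC II. Median SLA-DQB1 and HLA-DRA UMIs per cell were 6 and 4 in colostrum and 4 and 3 in mature milk. In the cells described here they were 53 and 35 and then 29 and 31. Against them 131 of 4768 genes were higher in both samples (2.75%) and 111 lower (2.33%), again as a description. SELENOP was higher by 5.83 and 4.06 on the log2 scale, RNF128, a ubiquitin ligase, by 5.23 and 5.24, MMP9, a gelatinase, by 4.91 and 5.47, CX3CR1 by 3.66 and 3.54, C3 by 3.89 and 3.01 and AXL by 2.92 and 3.44. Of 11 MHC II loading genes, 3 were higher in both samples and 0 lower, with medians of 0.56 and 0.36. SLA-DMA had 1.15 and 1.22 and SLA-DMB 1.58 and 1.70, while CD74 had 0.71 and 1.17. Of 8 T and NK cell genes, 5 were lower in both samples and 0 higher, among them GNLY of cytotoxic cells (-2.30 and -2.64) and CD2 of T cells (-2.59 and -2.03), whereas of 5 B and plasma cell genes 1 was higher and 1 lower. PPBP, a platelet chemokine, had -3.44 and -4.97. The cells described here held 0 and 1 UMIs of PPBP and 0 and 3 of GNLY. The colostrum ratios of both come from a 0 set to 3 UMIs and are bounds. ARG1 in colostrum was at 144 CPM in the cells described here and 966 CPM in these neighbours, and in mature milk at 1332 and 3764 CPM.

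**Figure D4:**
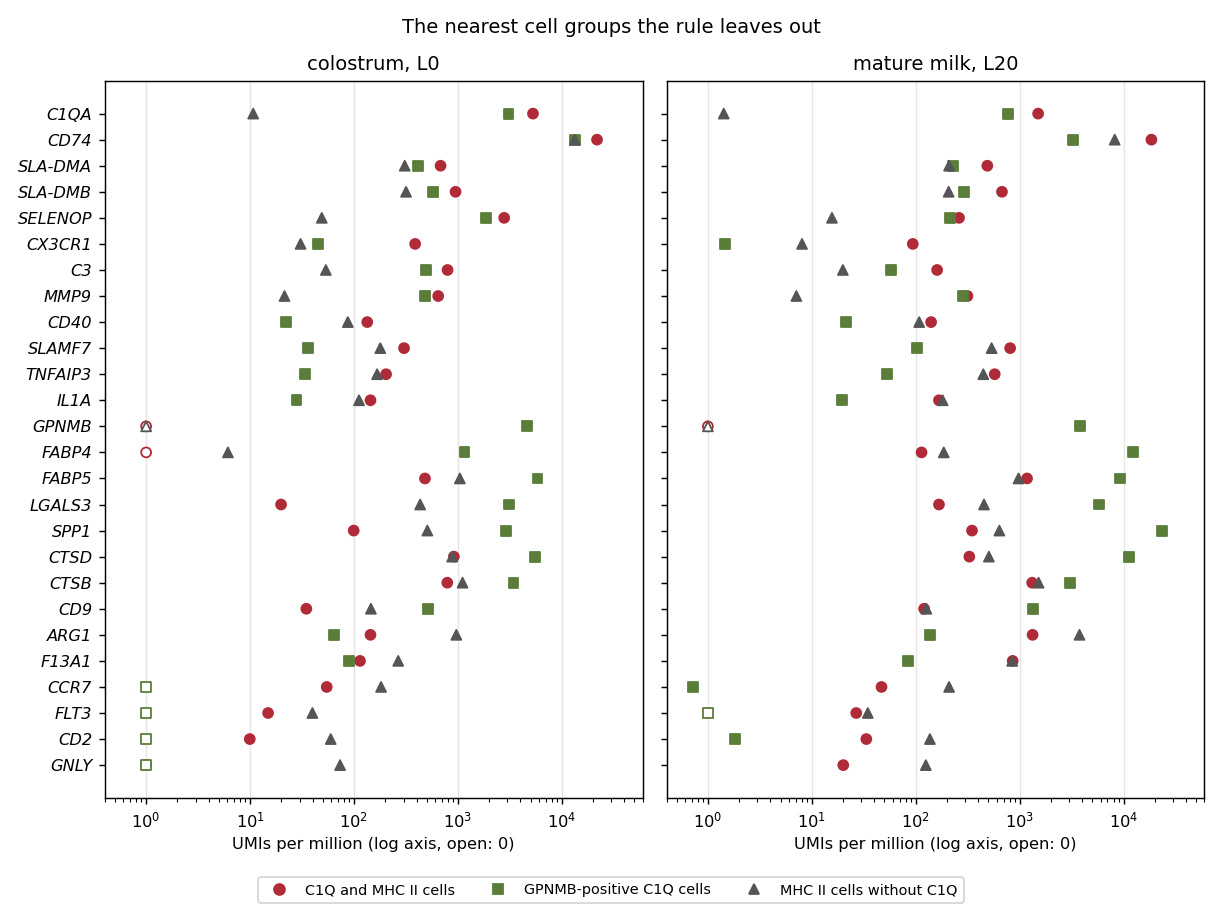
Level in CPM (log axis) of each gene in the C1Q and MHC II cells (circles), the GPNMB-positive C1Q cells (squares) and the MHC II cells without C1Q (triangles) of colostrum and mature milk, an open symbol standing for 0 UMIs. FABP4, LGALS3, SPP1 and CTSD are highest in the squares, while SELENOP and C3 of the triangles lie lowest, and CX3CR1 is highest in the circles.

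Over all other kept cells of the same sample, 936 of 7542 genes were 2-fold or more higher in both samples (12.4%) and 282 lower (3.74%). The genes with the largest lower-of-both ratio beside the rule's own were CX3CR1 (8.49 and 6.04), PDGFB, a platelet-derived growth factor chain (6.99 and 5.38), TIFAB, an inhibitor of TRAF6 signalling (6.63 and 5.24), SLA-DOA (6.17 and 4.84) and PLA2G2D, a secreted phospholipase of lymphoid tissue (7.20 and 4.79). CXCL9, CXCL11 and OSBP2 also ranked there, each on 1 cell in each sample, and 25 of the 30 PLA2G2D UMIs of colostrum came from 1 cell. In mature milk 88 of its 111 UMIs lay in cells with under 10 C1Q UMIs. PDGFB there rested on 7 UMIs in 4 cells and TIFAB on 5 UMIs in 3 cells. In colostrum the C1Q cells with GPNMB held PDGFB at 44.7 against 94.4 CPM and TIFAB at 50.3 against 74.6 CPM.

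The same rule was applied to the nuclei of the 10 glands, as context from another assay. It was met by 1099 of 126833 kept nuclei, from 0.166% to 2.66% of a gland. The pair of glands of involution day 7 (PI7) had the first and second highest shares, 2.66% and 1.53%, and day 2 (PI2) had 0.369% and 0.225%. In gestation day 90 (G90) and L20 the glands of a stage differed widely, with 1.26% and 0.182% and with 0.221% and 1.24%, and the L0 glands had 0.166% and 0.245%. The milk samples, at 0.199% and 0.193%, lay within the range of the glands. Nuclei and whole cells differ in the transcripts they hold, so the shares were not tested against each other.

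**Figure D5:**
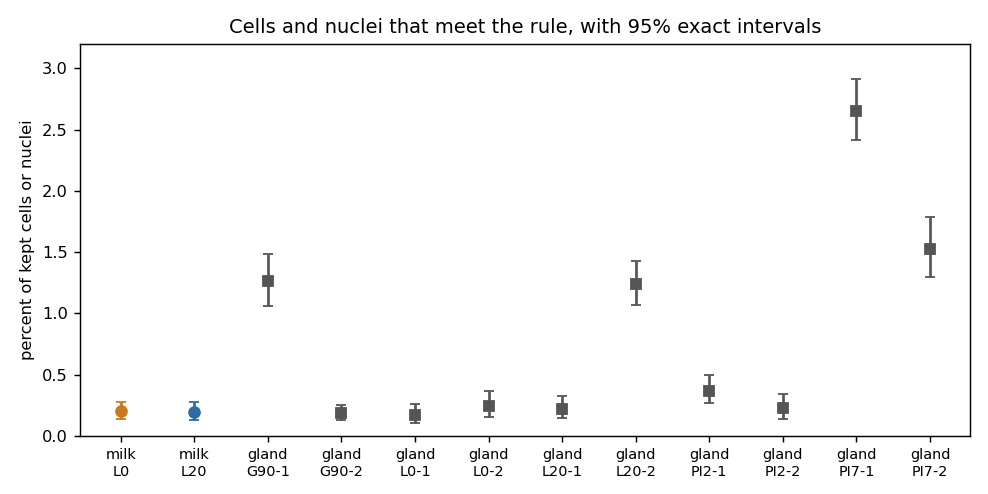
Percent of kept cells (2 milk samples, circles) and kept nuclei (10 glands, squares) that met the rule, with exact 95% intervals. The glands of involution day 7 stand highest at 2.66% and 1.53%, and the milk samples at 0.199% and 0.193% lie among the low glands.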

How the data were processed

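UMI counts of 2 milk samples were used, and those of the nuclei of 10 glands as context. The authors made GEXSCOPE single-cell libraries, aligned and counted them with CeleScope on Sscrofa11.1, and deposited whole UMI counts per gene and called barcode without normalization. The release of the annotation was not given in the sources used here, and no removal of free RNA or doublets is stated. The milk files hold 22257 and 18733 barcodes with 84971814 and 46923887 UMIs, and 25996 gene identifiers, of which 11396 carry no symbol, 632 of these being named from a reference table (C1QA and CD74 among them).

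From these counts, cells with at least 300 genes and at most 25% UMIs of 13 mitochondrial genes were kept and chosen by the rule. UMIs were summed per sample and group and scaled to CPM (python 3.11.15, scipy 1.17.1). A gene counted as past 2-fold with a log2 ratio of at least 1 in size and at least 20 UMIs over both groups, a count of 0 being set to 3 UMIs. Only sums of 1 sample per stage existed, so intervals (95%, Poisson or Clopper-Pearson) cover counting error only. Doublets were called with Scrublet in scanpy 1.11.5, which marked too few cells to be of use. Only the 2-fold calculation was tried on simulated sums, which had counting error but no spread between cells. The cell filter, the rule, the thinning and the lists were not covered. Alternatives covered cell filters, the rule, scaling by TMM (edgeR 4.0.16) and size factors (DESeq2 1.42.0), thinning to 1000 UMIs and the UMI minimum. No column of another sample was used.

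The members and the 37 gene lists were chosen with earlier results of these data known. Any gene of the lists could be named, and from all genes the 10 with a symbol and the largest ratio in each direction of each comparison, taking the lower of both samples where there were 2. Cell groups split by C1Q, ARG1 or AQP3 UMIs were chosen after the values were seen. The spatial sections were not used. Some genes are not reported here.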

Additional observations from a re-analysis of the deposited data

How the results depend on the processing

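No paired analysis was possible because each stage had 1 library. No sample could be left out for the same reason. The share of cells that met the rule moved outside its counting interval to 0.390% in colostrum and 0.399% in mature milk where cells needed 500 genes and could hold 10% mitochondrial UMIs at most. In colostrum it became 0.302% with at least 2 markers, 0.290% when 1 UMI of an excluded gene was allowed and 0.369% over cells thinned to 1000 UMIs. In mature milk it became 0.103% with at least 4 markers and 0.0827% with at least 10 C1Q UMIs, the latter setting chosen after seeing the data. The number of genes 2-fold higher in mature milk, 446 with the settings of the report, was 221 with at least 4 markers and 195 with at least 10 C1Q UMIs. It was 57 after thinning (63 lower), 160 with at least 50 UMIs (113 lower) and 1511 with at least 1 UMI (1626 lower), where the set of genes tested changed. Of the 858 calls, 848 were shared with TMM scaling, 446 with at least 4 markers and 367 with at least 10 C1Q UMIs. Genes higher in mature milk made up 52.0% of the calls, 36.8% with at least 4 markers and 35.3% with at least 10 C1Q UMIs. Of 503 values of single genes under the alternatives, 458 kept direction and side of the 2-fold size, 20 no longer reached it and 5 newly reached it. Another 17, of 8 genes (CD74, SLA-DMA, CCL4, CXCL8, FTL, TYROBP, CD163 and MS4A7), changed sign within 2-fold. A sign changed past 2-fold in 3: SERPING1 was 0.28 and CD163 -1.08 after thinning, and CCL2 was -0.034 with at least 10 C1Q UMIs. The 503 values covered chosen genes only. TNFAIP3, not among them, turned from 1.50 to -0.41 with at least 10 C1Q UMIs. Counting C1QA by its identifier as the fifth marker, also chosen after seeing the data, gave 0.245% and 0.220%. The cause was not tested. With 35 and 28 cells, a gene of few UMIs can rest on 1 cell.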

Other observations

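A colostrum cell held 18 of the 19 CENPF UMIs of the colostrum cells, a gene of dividing cells. BANK1, a B cell adaptor, was found in 25 of 35 colostrum cells (102 UMIs) and 11 of 28 mature milk cells (28 UMIs), while MS4A1 and CD79B were at 0 in both. MS4A2, the beta chain of the IgE receptor, had 7 UMIs in 4 colostrum cells and 26 UMIs in 11 mature milk cells. RNF128 had 266 UMIs in 29 colostrum cells and 32 UMIs in 7 mature milk cells, a log2 ratio of -2.63, and -1.68 in the cells with 10 or more C1Q UMIs.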
